A study of Caenorhabditis elegans with 21 samples.

Results

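Input libraries from whole young adults of the fzy-1;P240L strain were set against those of the oma-1::gfp strain, with 2 libraries of each, so that 4 of the 21 samples of the series form the comparison. The libraries were chosen by strain and library type, and the genes of sperm were then described apart from all others. An input library holds the total RNA of the animals, set aside before OMA-1::GFP was precipitated for the RNA immunoprecipitation (RIP) libraries of the same strains. The study asked how the anaphase promoting complex/cyclosome (APC/C) and OMA-1 act together in the oocyte-to-embryo transition. The adult inputs hold RNA of all tissues of the animal and not of oocytes or early embryos alone.

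The fzy-1;P240L strain (fzy-1;oma-1ts-gfp in the labels) carries 2 substitutions, fzy-1(D433N) on chromosome II and oma-1(zu405), the P240L change, on chromosome IV. The oma-1::gfp strain (oma-1-gfp in the labels) carries neither. Both strains have GFP joined to the C-terminus of OMA-1 at the endogenous locus, so the tag is shared by every library described here. About 100000 synchronized young adults kept at 25 °C were frozen for each library, and each library is therefore a pool of animals from 1 strain. The 2 inputs of the P240L strain (oma-1ts-gfp in the labels), which has the tagged oma-1(zu405) allele alone, are given beside the main comparison. No input of a strain with fzy-1(D433N) alone was analysed, and the part of that allele by itself cannot be told apart from its combination with P240L. Nothing in the labels says that the replicates were separate cultures, so p-values measure the spread between 2 pools per strain, which may be technical.

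FZY-1 is the Cdc20 activator of the APC/C, the ubiquitin ligase that starts anaphase, and OMA-1 is a CCCH zinc-finger protein of oocytes that binds maternal mRNAs and keeps them from being translated. A Caenorhabditis elegans hermaphrodite first makes sperm, in its last larval stage, and then switches its germ line to oocytes for the rest of its life. The stored sperm are transcriptionally silent, and the large set of sperm transcripts is made earlier, in spermatocytes. The best known of these encode the major sperm proteins (MSPs), which form the filaments on which the amoeboid sperm crawls and which also signal to oocytes to resume meiosis. Sperm-specific kinases, phosphatases, chromatin proteins and membrane proteins complete the set.

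Values are RPKM (reads scaled by transcript length and by library total), and differences are in log2(RPKM + 1) units, fzy-1;P240L minus oma-1::gfp, with a standard error (SE) from limma. A gene was tested where at least 2 of the 4 libraries reached 1 RPKM, and it was called higher or lower where the Benjamini-Hochberg adjusted p of limma was under 0.05 and the difference was past 1. The low values of the files put 1 read on a 1 kb transcript at 0.0785 and 0.0944 RPKM in the fzy-1;P240L inputs and at 0.0582 and 0.0569 RPKM in the oma-1::gfp inputs. The depth this implies is about 12700000 and 10600000 reads in the fzy-1;P240L inputs, against 17200000 and 17600000 reads in the oma-1::gfp inputs. The shallower fzy-1;P240L libraries nevertheless listed more genes above 0, 16543 and 16341, against 15419 and 15636. Ranks of the tested genes correlated at 0.964 between the fzy-1;P240L inputs, at 0.983 between the oma-1::gfp inputs and at 0.903 to 0.927 between the strains, as Spearman coefficients across genes, which are not independent replicates.

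Of 10548 genes tested, 509 were higher in fzy-1;P240L inputs, which is 4.83%, and 59 were lower, which is 0.559%. The median difference of all tested genes was 0.12 log2 units. With the medians of the libraries set equal over the genes outside the sperm list, that median came to -0.07, and the calls were 402 higher and 88 lower, so that 82.0% of calls were higher in place of 89.6%. With quantile normalization 74.8% of calls were higher, 300 against 101. Differences below are read against this shift. The genes called higher were mostly rare in oma-1::gfp inputs, and their median level was 4.79 RPKM in fzy-1;P240L inputs, against 0.229 RPKM in oma-1::gfp inputs.

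**Figure D1:**
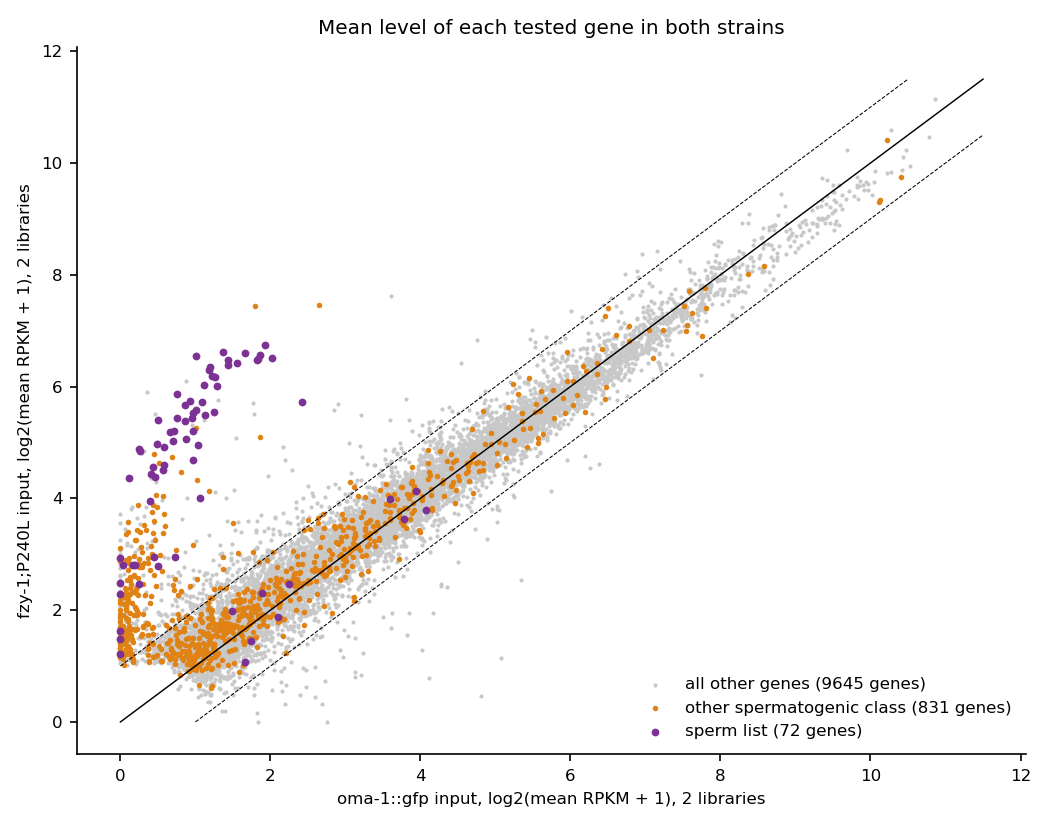
Mean level of each of the 10548 tested genes in the 2 fzy-1;P240L inputs (vertical axis) against the 2 oma-1::gfp inputs (horizontal axis), both as log2(mean RPKM + 1). The solid line marks equal levels and the dashed lines a difference of 1; most of the sperm list (purple, 72 genes) and a part of the other Spermatogenic class (orange, 831 genes) stand at the left edge, where oma-1::gfp levels are low, while most other genes (grey) follow the solid line.

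The clearest feature of the comparison was a rise of sperm transcripts. A list of 100 sperm genes with a row in the files, drawn up by name and ordered by role, summed to 3531 and 1856 RPKM in the fzy-1;P240L inputs, against 132 and 131 RPKM in the oma-1::gfp inputs. The mean sums were 2693 ± 1184 and 131.5 ± 0.27 RPKM (SD, n = 2 each), a ratio of 20.5. The P240L inputs lay between the strains, at 447 and 423 RPKM. These sums do not overlap, although 2 libraries against 2 allow no exact test below the usual threshold, and the larger of the fzy-1;P240L sums was 1.90 times the smaller.

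Of the 98 list members above 0 in at least 1 of the 4 libraries, 88 were higher in both fzy-1;P240L inputs than in both oma-1::gfp inputs, against 36.8% of all 18101 genes above 0, and 3 were lower in both, against 9.87%. The minimum for testing was passed by 72 members, of which 62 were called higher and 0 lower, where 1 had an unadjusted p under 0.05 in the lower direction. The minimum favours the difference, since 32 of the 72 stayed under 1 RPKM in both oma-1::gfp inputs and passed through fzy-1;P240L alone. Among the 25 members that reached 1 RPKM in both oma-1::gfp inputs, 15 were called higher, beside 105 of 9129 genes in all (1.15%) under the same condition.

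**Figure D2:**
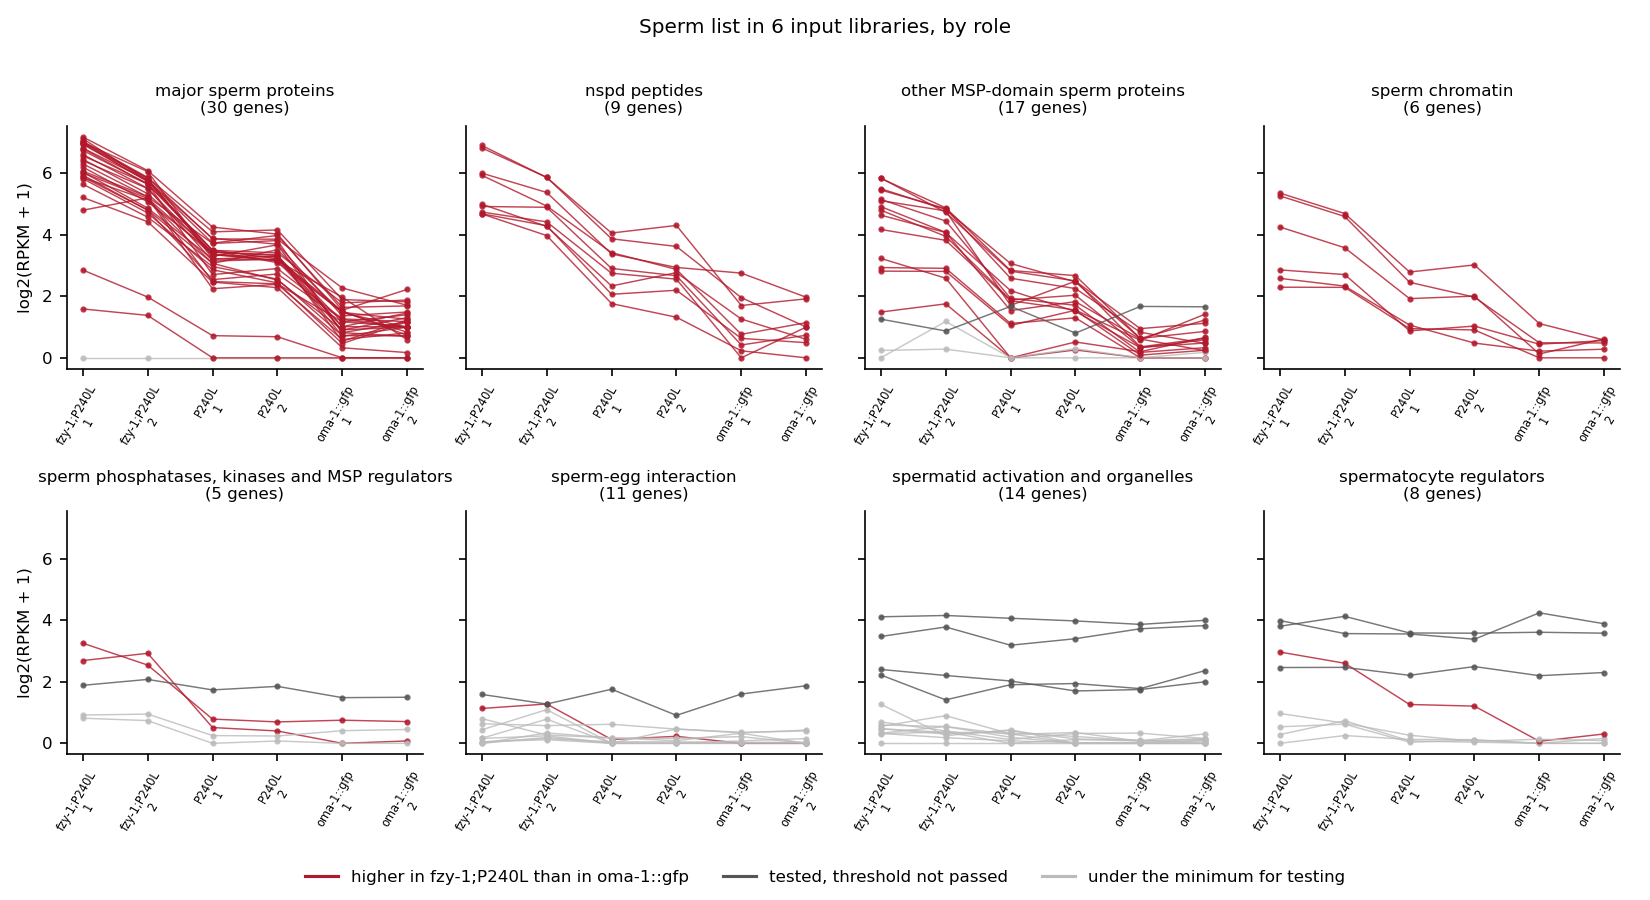
Level of every gene of the sperm list, as log2(RPKM + 1), in the 6 input libraries (2 of fzy-1;P240L, 2 of P240L and 2 of oma-1::gfp), with 1 panel for each role and 1 line for each gene. Red lines are the 62 genes called higher in fzy-1;P240L than in oma-1::gfp inputs, dark grey lines were tested without passing and light grey lines were under the minimum; the major sperm proteins, nspd peptides, other MSP-domain proteins and sperm chromatin proteins step down from left to right, whereas the more abundant spermatid activation genes and spermatocyte regulators (dark grey) run nearly level and their rare members lie close to 0.

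The major sperm proteins carried most of the sum. All 29 detected msp genes were called higher (an msp gene with no read, msp-32, was listed at 0 in all 6 inputs), with a median difference of 4.61, and 12 of the 12 that reached 1 RPKM in both oma-1::gfp inputs were among them. Together the msp genes summed to 2435 and 1159 RPKM in fzy-1;P240L inputs, against 38.2 and 36.7 RPKM in oma-1::gfp inputs, a ratio of means of 47.98. The msp genes lie in clusters on chromosomes II (13 genes) and IV (17 genes) and are near-identical copies, so the division of reads among them is uncertain and their sum is the safer quantity.

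The msp gene with the largest difference was msp-59, on chromosome IV, which had 129 and 55.6 RPKM in the fzy-1;P240L inputs, 8.84 and 11.8 RPKM in the P240L inputs and 0.762 and 1.25 RPKM in the oma-1::gfp inputs. Its difference was 5.43 (SE 0.39, limma adjusted p = 0.00118). The most abundant was msp-36, also on chromosome IV, with 145 and 67.2 RPKM in fzy-1;P240L inputs, against 1.93 and 3.68 RPKM in oma-1::gfp inputs, a difference of 4.75 (SE 0.40, limma adjusted p = 0.00167). On chromosome II, msp-31 had 131 and 57.4 RPKM in fzy-1;P240L inputs, against 2.72 and 2.54 RPKM in oma-1::gfp inputs. In each of these genes the first fzy-1;P240L library was more than 2 times the second, and neither came near the other strain. The smallest differences were those of msp-63 and msp-74, which were listed at 0 in both oma-1::gfp inputs and reached 6.24 and 2.94 RPKM and 2.01 and 1.60 RPKM in fzy-1;P240L inputs.

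The nspd genes encode small nematode-specific peptides of sperm, and all 9 were called higher, with differences between 3.33 and 4.87. Their sum was 491 and 286 RPKM in fzy-1;P240L inputs, against 14.1 and 10.51 RPKM in oma-1::gfp inputs. The largest difference was that of nspd-1, which had 113 and 57.6 RPKM in fzy-1;P240L inputs, against 2.89 and 1.005 RPKM in oma-1::gfp inputs (4.87, SE 0.42, limma adjusted p = 0.00175). The smallest difference was that of nspd-7, which already had 5.76 and 2.92 RPKM in oma-1::gfp inputs and reached 63.4 and 40.7 RPKM in fzy-1;P240L inputs.

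Other small proteins with an MSP domain, encoded by the ssp, msd and sss genes, followed the same course. Of 17 genes with a row 15 were tested, 14 were called higher, beside 4.83% of all tested genes, and the median difference was 3.91. The largest was ssp-9, with 56.7 and 25.5 RPKM in fzy-1;P240L inputs, against 0.280 and 0.552 RPKM in oma-1::gfp inputs (4.80, SE 0.37, limma adjusted p = 0.00138). The nearby gene ssp-11 had 56.2 and 28.5 RPKM, against 0.550 and 0.815 RPKM. A single tested member did not pass, ssp-37, with 1.39 and 0.832 RPKM in fzy-1;P240L inputs and 2.19 and 2.16 RPKM in oma-1::gfp inputs. It was also the only tested member of this role that reached 1 RPKM in both oma-1::gfp inputs, and the minimum for testing favours the 14 higher calls.

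Sperm chromatin is packed with small basic proteins, and all 6 genes of that role were called higher, beside 4.83% of all tested genes. Of these 6 genes 0 reached 1 RPKM in both oma-1::gfp inputs, and the minimum for testing favours such calls. The protamine-like gene spch-3 had 40.1 and 24.9 RPKM in fzy-1;P240L inputs, against 1.17 and 0.493 RPKM in oma-1::gfp inputs (4.18, SE 0.30, limma adjusted p = 0.00118), and spch-1 had 37.6 and 23.2 RPKM, against 0.404 and 0.398 RPKM (4.45, SE 0.26, limma adjusted p = 0.00109). The PDZ-domain genes smz-1 and smz-2, listed with this role, and htas-1, which encodes an H2A variant, were rarer, between 3.90 and 6.26 RPKM in fzy-1;P240L inputs and at most 0.475 RPKM in oma-1::gfp inputs. Their differences lay between 2.21 and 2.30.

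The phosphatases and kinases of sperm were low in both strains. The PP1 phosphatases gsp-3 and gsp-4, which act in sperm meiosis and motility, were called higher, gsp-3 at 5.46 and 6.62 RPKM in fzy-1;P240L inputs, against 0 and 0.0546 RPKM, and gsp-4 at 8.56 and 4.84 RPKM, against 0.684 and 0.633 RPKM. These 2 genes are close copies and may share reads. The casein kinase gene spe-6 did not pass, at 2.70 and 3.23 RPKM in fzy-1;P240L inputs and 1.80 and 1.83 RPKM in oma-1::gfp inputs (limma adjusted p = 0.247).

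Genes of the later steps of sperm function were mostly below the range of the test. Of 11 genes of sperm-egg interaction, 2 were tested and 1 was called, spe-11, the paternal-effect gene whose product enters the egg with the sperm, at 1.20 and 1.43 RPKM in fzy-1;P240L inputs and 0 in both oma-1::gfp inputs (1.21, SE 0.19, limma adjusted p = 0.018). The EGF-repeat gene spe-9, needed on the sperm surface to fertilize, was at 0.116 and 0.185 RPKM in fzy-1;P240L inputs and 0.0574 and 0.113 RPKM in oma-1::gfp inputs, where a 1 kb transcript with 3 reads would stand at 0.171 to 0.283 RPKM, and no difference was detectable at this depth. Of 14 genes of spermatid activation and sperm organelles 4 were tested and 0 were called by limma, with 0 at an unadjusted p under 0.05. By value alone, 11 of the 13 detected genes of this role were higher in both fzy-1;P240L inputs than in both oma-1::gfp inputs and 0 were lower in both, against 36.8% and 9.87% of all genes, most of them at levels too low for the test. For example spe-10, which encodes a palmitoyltransferase of sperm organelles, had 0.513 and 0.460 RPKM in fzy-1;P240L inputs and 0 in both oma-1::gfp inputs. Of the abundant members, the zinc transporter gene zipt-7.1 had 16.3 and 16.9 RPKM in fzy-1;P240L inputs and 13.6 and 15.03 RPKM in oma-1::gfp inputs, and spe-48 had 10.1 and 12.8 RPKM, against 12.2 and 13.2 RPKM.

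Of 8 genes listed as spermatocyte regulators 4 were tested and 1 was called, while 6 were higher in both fzy-1;P240L inputs by value and 0 were lower in both. The CPEB-type RNA-binding genes cpb-1 and fog-1, needed for spermatogenesis, had 13.02 and 16.5 RPKM and 14.9 and 10.9 RPKM in fzy-1;P240L inputs, against 11.2 and 10.99 RPKM and 17.97 and 13.8 RPKM in oma-1::gfp inputs, and neither passed (limma adjusted p = 0.345 and 0.542). The transcription factor gene spe-44, which drives many spermatocyte genes, had 4.53 and 4.55 RPKM in fzy-1;P240L inputs and 3.60 and 3.94 RPKM in oma-1::gfp inputs (limma adjusted p = 0.575). On the same list spe-18, needed to assemble MSP into the fibrous bodies of spermatocytes, was the single gene called, at 6.84 and 5.09 RPKM in fzy-1;P240L inputs, against 0.0477 and 0.235 RPKM in oma-1::gfp inputs (2.60, SE 0.23, limma adjusted p = 0.00181). The rest were under 1 RPKM in all 6 inputs and were not tested. The Argonaute genes of spermatogenesis, alg-3 and alg-4, had 0.218 and 0.666 RPKM and 0.452 and 0.540 RPKM in fzy-1;P240L inputs and were listed at 0 in both oma-1::gfp inputs. In the same range spe-26 had 0.963 and 0.575 RPKM in fzy-1;P240L inputs, against 0.0971 and 0.0639 RPKM in oma-1::gfp inputs, and fog-3 had 0 and 0.192 RPKM, against 0 and 0.117 RPKM.

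The sperm genes were also set beside the P240L inputs, in 1 fit of the 6 input libraries. In that fit 7.99% of 10946 genes were higher in fzy-1;P240L than in P240L inputs and 2.49% were lower, while 3.72% were higher in P240L than in oma-1::gfp inputs and 2.38% lower. Of the 72 sperm list members tested, 62 were higher in fzy-1;P240L than in P240L inputs, with a median difference of 2.35, and 0 were lower. The comparison of P240L with oma-1::gfp inputs, which shares libraries with both others, called 49 members higher, with a median of 1.61, and 0 lower. For 59 of the 72 both fzy-1;P240L inputs were above both P240L inputs and these above both oma-1::gfp inputs. The ratio of summed RPKM was 6.19 for fzy-1;P240L over P240L and 3.31 for P240L over oma-1::gfp.

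The 2 fzy-1;P240L inputs differed from each other in the amount of sperm transcripts. In 63 of the 72 tested members the first library was above the second, and the ratio of the summed levels was 2.101 for the msp genes, 1.71 for the nspd genes, 1.53 for the chromatin genes and 1.02 for the spermatid activation genes. The list of oocyte and embryo RNA regulators had a ratio of 1.22 in the same pair of libraries, and the part of library composition in this was not tested. Leaving out either fzy-1;P240L input kept 60 or 61 of the 62 members called. The same order of strains appeared in the RIP libraries, of which values alone are given, with sperm list sums of 1058 and 532 RPKM in fzy-1;P240L RIP, 323 and 312 RPKM in P240L RIP and 96.5 and 91.3 RPKM in oma-1::gfp RIP.

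A wider view comes from the germ line classes that the authors attached to the genes, which divide them into Spermatogenic, Oogenic and Gender Neutral. Of the Spermatogenic class 890 genes were tested, and 238 were called higher (26.7%) and 0 lower, where 21 had an unadjusted p under 0.05 in the lower direction. Without the genes on the sperm list, 831 of the class were tested, 185 were higher (22.3%) and 0 lower, at a median difference of 0.32. In contrast to the named list, much of this class was measurable in oma-1::gfp inputs. Of its 525 members off the list that reached 1 RPKM in both oma-1::gfp inputs 10 were called higher (1.90%), with a median of 0.14, whereas 172 of the 185 called genes had a mean under 1 RPKM in oma-1::gfp inputs. Of 1357 Oogenic genes 4 were called higher (0.295%), F10C2.3, coel-1, his-32 and tth-1, and 0 lower, where 10 had an unadjusted p under 0.05 in the lower direction. Outside both sperm groupings 262 of 9645 genes were higher (2.72%) and 59 lower (0.612%).

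**Figure D3:**
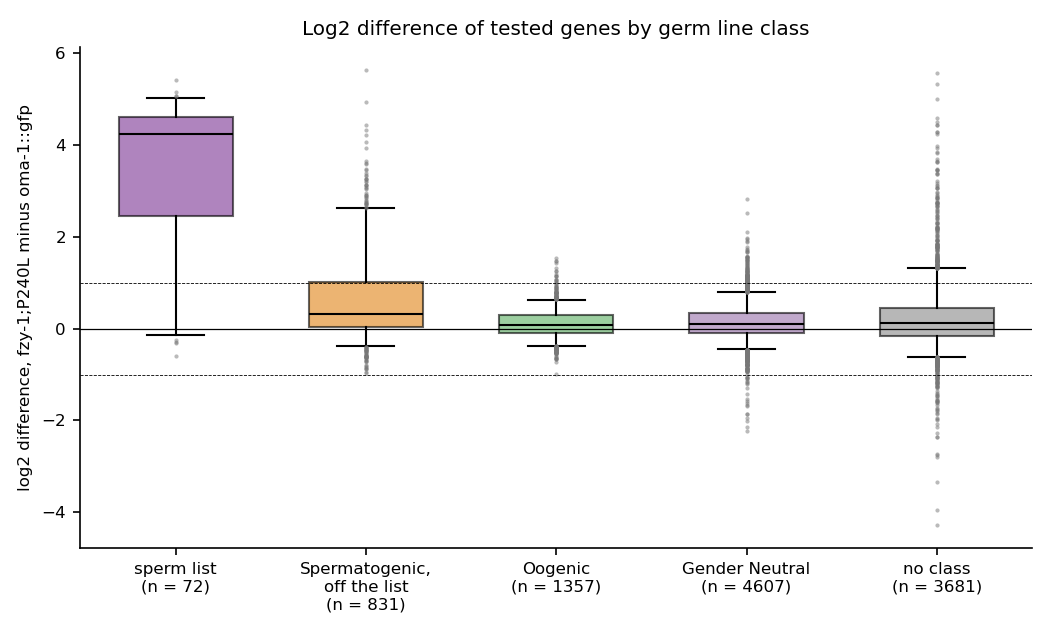
Log2 difference, fzy-1;P240L minus oma-1::gfp input, of the tested genes in the sperm list (72), the Spermatogenic class off the list (831), the Oogenic class (1357), the Gender Neutral class (4607) and genes of no class. Boxes span the quartiles with the median as a line, whiskers the 5th to 95th percentile and points the genes beyond; the dashed lines mark the threshold of 1, and the sperm list alone has its box above it.

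Within the Spermatogenic class off the list, the ssq genes, a family of sperm-specific proteins, were chosen after their values were seen. Of these, ssq-1 had 45.7 and 20.9 RPKM in fzy-1;P240L inputs, against 2.81 and 2.46 RPKM in oma-1::gfp inputs (3.14, SE 0.36, limma adjusted p = 0.00462), and ssq-2 had 36.1 and 15.7 RPKM, against 0.709 and 0.525 RPKM (3.95, SE 0.38, limma adjusted p = 0.00242). All 4 ssq genes, ssq-1 to ssq-4, passed in the same direction.

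The genes called higher were unevenly spread over the chromosomes. Of the sperm list and the Spermatogenic class together, 85 of 197 tested genes on chromosome IV were higher (43.1%), 53 of 152 on I (34.9%), 46 of 168 on II (27.4%), 35 of 146 on V, 27 of 146 on III (18.5%) and 1 of 90 on X (1.11%), the last being acs-17. None of the 100 named sperm genes lies on the X chromosome. Among all other genes the share on X was 1.60%, and the shares on the autosomes lay between 1.51% and 4.26%. The minimum for testing favours the higher calls. Through fzy-1;P240L alone, 32 of the 72 tested sperm list genes and 243 of the 831 other Spermatogenic genes passed it. These chromosome counts are a description, since genes of a cluster are not independent.

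No gene of the oocyte and germ line lists passed the test. The zinc-finger genes themselves had 104 and 69.98 RPKM (oma-1) and 290 and 191 RPKM (oma-2) in fzy-1;P240L inputs, against 121 and 89.5 RPKM and 349 and 257 RPKM in oma-1::gfp inputs, and neither passed (limma adjusted p = 0.603 and 0.556). fzy-1 had 80.5 and 74.0 RPKM in fzy-1;P240L inputs and 87.3 and 79.8 RPKM in oma-1::gfp inputs (limma adjusted p = 0.769). As both alleles are substitutions of 1 residue, these transcript levels do not check the genotypes. The ranges of the strains overlap for all 3 genes.

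No member passed in 15 of the other 26 lists, with 387 tested members, of which limma gave 31 an unadjusted p under 0.05 in the higher direction and 3 in the lower. They include the APC/C and chromosome segregation genes (22 tested), the cyclins and mitotic kinases (20), the oocyte and embryo RNA regulators (36), the eggshell genes (14), the P granule components (15) and the meiotic axis and synapsis genes (24). For instance, pos-1, a CCCH zinc-finger regulator of the embryo, had 1441 and 968 RPKM in fzy-1;P240L inputs and 1624 and 1208 RPKM in oma-1::gfp inputs. The securin gene ify-1, whose product is the target of the APC/C in anaphase, had 139 and 130 RPKM in fzy-1;P240L inputs and 129 and 123 RPKM in oma-1::gfp inputs. The cyclin gene cyb-3 had 548 and 379.9 RPKM, against 575 and 492 RPKM. The eggshell gene cpg-2 had 1041 and 579.8 RPKM, against 1196 and 772 RPKM. Among the oocyte and embryo RNA regulators 15 of 37 genes were higher in both fzy-1;P240L inputs by value and 4 were lower in both. These shares are close to the 36.8% and 9.87% of all genes. Of the 36 tested, limma gave 6 an unadjusted p under 0.05 in the higher direction and 0 in the lower. Over all 10548 tested genes 2041 had an unadjusted p under 0.05, 347 of them in the lower direction. Chosen after their values were seen, the translational repressor genes gld-1 and puf-5 had 72.97 and 184 RPKM and 120.2 and 228 RPKM in fzy-1;P240L inputs, against 32.3 and 55.5 RPKM and 66.8 and 103 RPKM in oma-1::gfp inputs (limma adjusted p = 0.170 and 0.210). The early zygotic genes (30 tested) likewise gave no call, and vit-2, a yolk protein gene, had 602 and 603 RPKM, against 475 and 452 RPKM.

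**Figure D4:**
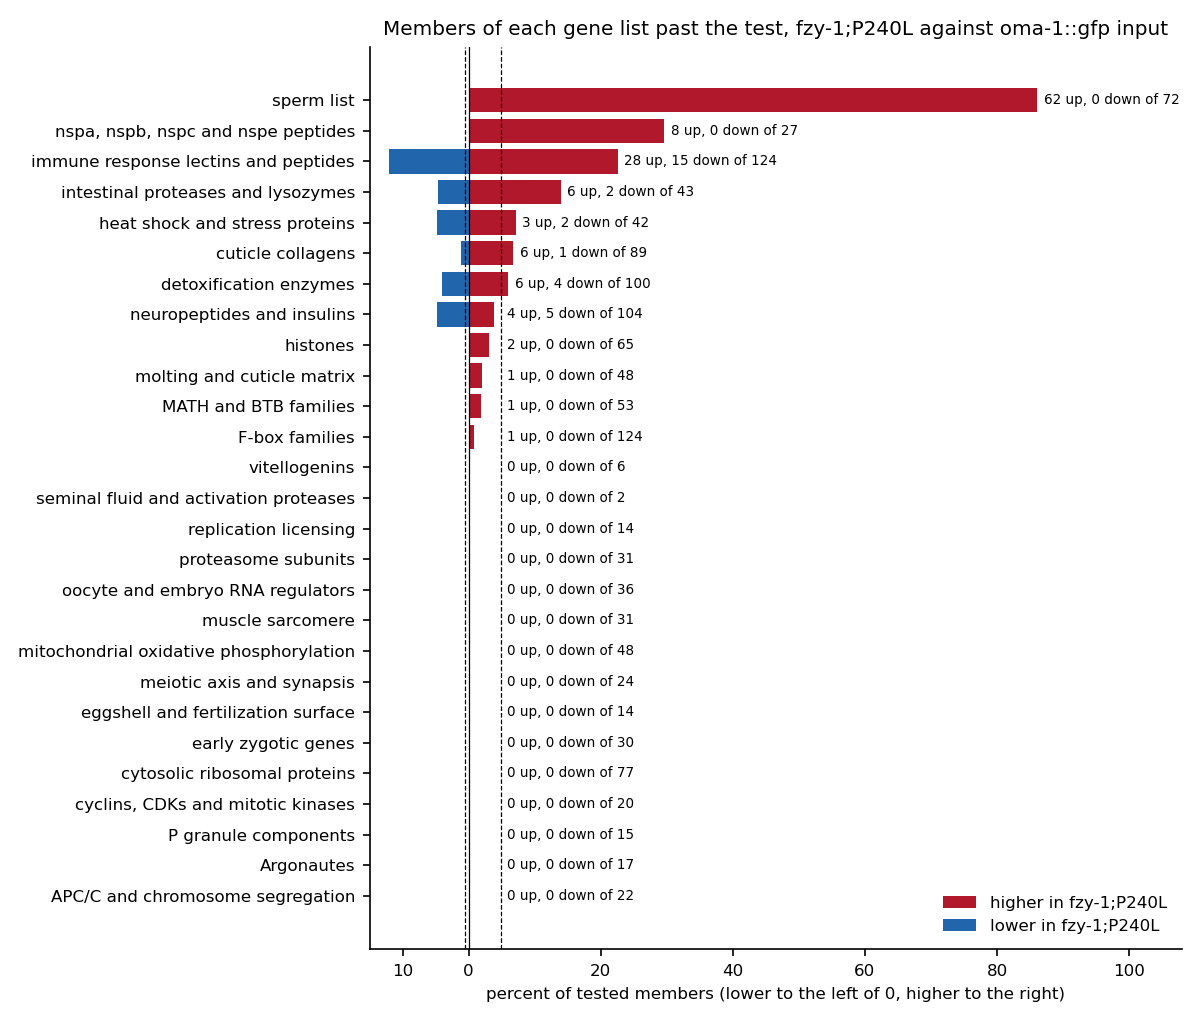
Percent of the tested members of each of 27 gene lists called higher (red, to the right) or lower (blue, to the left) in fzy-1;P240L than in oma-1::gfp inputs, with the counts beside each bar. Dashed lines mark the shares over all 10548 tested genes, 4.83% higher and 0.559% lower; the sperm list stands at 62 of 72 and 15 lists have no bar at all.

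Markers were checked for the other cell types that a whole animal holds. All 10 sperm markers are members of the sperm list, so their values repeat that result and are no separate check of it. The 8 that were tested were called higher, beside 4.83% of all tested genes. Of these, msp-142, gsp-3, gsp-4, spch-1 and smz-1 passed the minimum for testing through fzy-1;P240L alone. The sperm markers summed to 457 and 228 RPKM in fzy-1;P240L inputs, against 9.65 and 6.57 RPKM in oma-1::gfp inputs. The 9 other cell types had 44 markers, 33 of them tested, and limma called 0, where 5 had an unadjusted p under 0.05. The oocyte markers summed to 1971 and 1447 RPKM in fzy-1;P240L inputs, against 2126 and 1596 RPKM in oma-1::gfp inputs, and those of the mitotic and meiotic germ line to 324 and 389.6 RPKM, against 276 and 283 RPKM. The neuron markers summed to 88.4 and 145 RPKM, against 78.5 and 88.3 RPKM, and the intestine markers to 1067 and 1411 RPKM, against 800.1 and 864 RPKM. In whole animals more cells of a type and more RNA per cell cannot be told apart.

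Male tissue was looked at with a list chosen after the values were seen. The defining genes of male sensory neurons, pkd-2 and lov-1, stood at 0 and 0.0419 RPKM and at 0.0239 and 0.00952 RPKM in fzy-1;P240L inputs, against 0.0259 and 0 RPKM and 0.00589 and 0 RPKM in oma-1::gfp inputs. In P240L inputs lov-1 had 0.0455 and 0.0342 RPKM. Both genes were under the minimum for testing. xol-1, the first switch of male fate in the embryo, was at 0.300 and 0.419 RPKM, against 0.555 and 0.365 RPKM. On the other hand, her-1, which encodes a secreted protein that promotes male fate, was called higher, with 32.3 and 26.5 RPKM in fzy-1;P240L inputs, 2.04 and 2.87 RPKM in P240L inputs and 5.17 and 1.84 RPKM in oma-1::gfp inputs (2.85, SE 0.37, limma adjusted p = 0.00749). her-1 was 1 of the 3 tested genes on the list, all 3 of which had an unadjusted p under 0.05 in the higher direction and a difference past 1. Over all 10548 tested genes 2041 had an unadjusted p under 0.05, 347 of them in the lower direction. The others on the list, mab-3 and cwp-2, passed the minimum for testing through fzy-1;P240L alone, which favours the higher direction. Neither passed after adjustment. The DM-domain gene of male development mab-3 was at 2.68 and 1.18 RPKM, against 0.174 and 0.411 RPKM (limma adjusted p = 0.0991), and cwp-2 at 1.075 and 2.57 RPKM, against 0.477 and 0 RPKM (limma adjusted p = 0.127). The part of males in the sperm result was not tested. Of 9 regulators of germ line sex (the tra, fem and fog genes) 8 were tested and 0 were called by limma, with 0 at an unadjusted p under 0.05.

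Outside the sperm list, the largest increases belonged to other short peptides. The nspa genes, a nematode-specific peptide family on chromosome V, had 8 of 8 named members called higher, beside 4.83% of all tested genes. On the same list of 27 tested members, 0 of the nspb, nspc and nspe genes were called. The minimum for testing favours higher calls here. Of the 21 tested members of this list that reached 1 RPKM in both oma-1::gfp inputs 2 were higher, beside 1.15% of all genes under the same condition. The largest nspa difference was that of nspa-3 (5.64, SE 0.51, limma adjusted p = 0.00199). It had 239 and 105 RPKM in fzy-1;P240L inputs, 22.2 and 28.1 RPKM in P240L inputs and 3.87 and 1.09 RPKM in oma-1::gfp inputs. In the same cluster, nspa-6 had 67.3 and 50.9 RPKM in fzy-1;P240L inputs, against 0.553 and 0 RPKM in oma-1::gfp inputs (5.58, SE 0.28, limma adjusted p = 0.00107). The genes nspa-1 and nspa-7 had 227 and 122 RPKM and 86.0 and 49.1 RPKM in fzy-1;P240L inputs, against 8.29 and 2.18 RPKM and 1.66 and 0 RPKM. Of the 8 genes nspa-1, nspa-3, nspa-5 and nspa-8 are in the Spermatogenic class. In the WBcel235 annotation nspa-3 spans chrV:14880435-14880539 and nspa-6 chrV:14889407-14889511, and the likeness of such copies makes the share of each uncertain.

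The fip and fipr genes, named for induction by fungal infection, form another set of short peptides. Of 25 tested, 8 were higher and 1, fip-5, was lower, and 0 were lower without either fzy-1;P240L input or without the second oma-1::gfp input. Over all tested genes 4.83% were higher and 0.559% lower. The minimum for testing favours higher calls here too. Of the 15 tested members that reached 1 RPKM in both oma-1::gfp inputs 1 was higher, beside 1.15% of all genes under the same condition. The largest difference was that of fipr-20, on chromosome III, with 60.02 and 28.8 RPKM in fzy-1;P240L inputs, 7.63 and 7.70 RPKM in P240L inputs and 0.759 and 0 RPKM in oma-1::gfp inputs (5.01, SE 0.41, limma adjusted p = 0.00159). Close to it, fipr-18 had 39.2 and 16.3 RPKM in fzy-1;P240L inputs, against 0.492 and 0 RPKM (4.43, SE 0.42, limma adjusted p = 0.00243). The other higher members were fipr-16, fipr-17, fipr-19, fipr-28, fip-3 and fip-7, all between 3.53 and 49.5 RPKM in fzy-1;P240L inputs and at most 1.93 RPKM in oma-1::gfp inputs.

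Further genes named by the size of the difference were msrp-2, with 66.4 and 40.3 RPKM in fzy-1;P240L inputs, against 1.91 and 1.01 RPKM (4.45, SE 0.30, limma adjusted p = 0.00115), and a pair of gene models that share the name Y59E9AR.7. The pair, at chrIV:5241402-5241794 and chrIV:5249428-5249820, had 28.4 and 28.2 RPKM and 31.96 and 22.4 RPKM in fzy-1;P240L inputs, and none of their oma-1::gfp values was above 0.295 RPKM. The genes nspf-1, nspf-2 and nspf-3, neighbours on chromosome II that were chosen after their values were seen, reached 5.35 and 2.84, 8.32 and 3.91, and 8.55 and 6.31 RPKM in fzy-1;P240L inputs and were listed at 0 in both oma-1::gfp inputs. The insulin-like gene ins-31 had 11.9 and 8.02 RPKM in fzy-1;P240L inputs, against 0.0856 and 0 RPKM (3.37, SE 0.24, limma adjusted p = 0.00118). C-type lectins were split, with 19 of 69 tested genes higher and 4 lower; without either oma-1::gfp input 12 were higher, and without the first or second fzy-1;P240L input 2 or 0 were lower. Of the 44 tested C-type lectins that reached 1 RPKM in both oma-1::gfp inputs 3 were higher, while 9 tested members were at 0 in both. The share over all tested genes was 4.83% higher and 0.559% lower. The largest difference among the C-type lectins was that of clec-197, chosen after its values were seen, at 7.42 and 4.68 RPKM in fzy-1;P240L inputs, against 0 and 0.0752 RPKM in oma-1::gfp inputs.

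**Figure D5:**
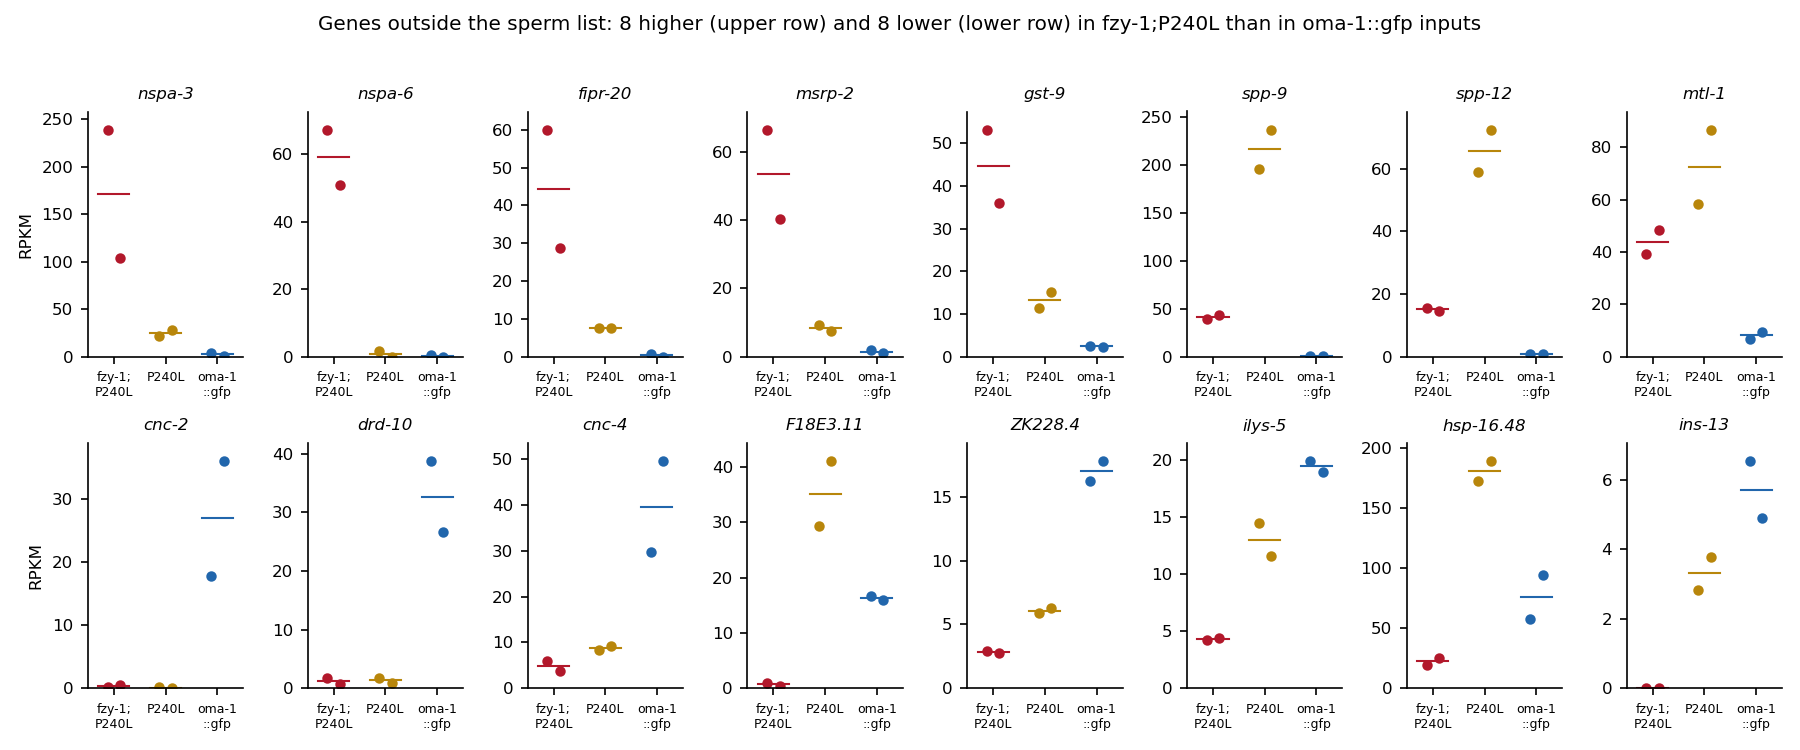
RPKM of 16 genes outside the sperm list in the 2 fzy-1;P240L (red), 2 P240L (ochre) and 2 oma-1::gfp (blue) inputs, as points with the mean as a bar and an own axis from 0 for each gene. The upper row shows 8 genes higher and the lower row 8 genes lower in fzy-1;P240L than in oma-1::gfp inputs; spp-9, spp-12 and mtl-1 are highest in P240L inputs, and F18E3.11, ins-13 and hsp-16.48 are lowest in fzy-1;P240L inputs and at least 2.83 RPKM in every P240L and oma-1::gfp input.

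A different order of strains was seen in single genes that were higher in fzy-1;P240L than in oma-1::gfp inputs and higher still in P240L inputs. The saposin-like gene spp-9, whose family encodes membrane-active antimicrobial proteins, had 39.2 and 43.1 RPKM in fzy-1;P240L inputs, 196 and 237 RPKM in P240L inputs and 1.01 and 1.33 RPKM in oma-1::gfp inputs (4.28, SE 0.19, limma adjusted p = 0.00107). Its relative spp-12 had 15.7 and 14.6 RPKM, 58.8 and 72.4 RPKM, and 0.858 and 0.847 RPKM in the same order. In the list of intestinal proteases and lysozymes 6 of 43 tested genes rose and 2 fell, beside 4.83% and 0.559% of all genes. The median difference of the list was 0.64 (0.45 with equal medians). Without any 1 library 3 or 4 genes of that list were higher. In the fit of 6 libraries 3 of its genes were higher and 8 lower in fzy-1;P240L than in P240L inputs. By contrast with the sperm genes, spp-9 and spp-12 were called lower in fzy-1;P240L than in P240L inputs.

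Other genes of this kind, chosen after their values were seen, were far-3, a fatty acid and retinol binding protein gene, with 229 and 162 RPKM in fzy-1;P240L inputs, 372 and 432.6 RPKM in P240L inputs and 10.996 and 11.48 RPKM in oma-1::gfp inputs, comt-4, a methyltransferase gene, with 53.9 and 48.3, 644 and 566, and 2.26 and 2.52 RPKM, and the cathepsin B-like gene cpr-4, with 48.7 and 52.04 RPKM in fzy-1;P240L inputs, 255 and 290.4 RPKM in P240L inputs and 4.81 and 8.11 RPKM in oma-1::gfp inputs. The metallothionein gene mtl-1 had 39.4 and 48.5 RPKM in fzy-1;P240L inputs, 58.2 and 86.7 RPKM in P240L inputs and 6.97 and 9.47 RPKM in oma-1::gfp inputs (2.29, SE 0.21, limma adjusted p = 0.00231). Among 100 tested detoxification genes 6 were higher, a share near the 4.83% of all genes, and 4 were lower, of which 0 or 1 was counted without any 1 library. The glutathione S-transferase genes gst-9 and gst-35 had 53.1 and 35.9 RPKM and 6.06 and 10.7 RPKM in fzy-1;P240L inputs, against 2.51 and 2.39 RPKM and 0.380 and 0.300 RPKM in oma-1::gfp inputs. In P240L inputs gst-9 was lower than in fzy-1;P240L inputs, at 11.4 and 15.1 RPKM, and gst-35 was higher, at 31.96 and 38.1 RPKM.

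The 59 genes lower in fzy-1;P240L inputs included antimicrobial peptide genes of the cnc and nlp families. Their number rests on both libraries, since without the second fzy-1;P240L input 15 genes were called lower. In the fit of 6 libraries 35 of the 59 were also lower in P240L than in oma-1::gfp inputs, and 18 were lower in fzy-1;P240L than in P240L inputs. Of 23 tested genes of the cnc (caenacin), nlp-24 to nlp-34 and irg families 10 were lower, beside 0.559% of all tested genes, and 0 were higher. Among the 23, limma gave 1 an unadjusted p under 0.05 in the higher direction, and their median difference was -1.09. In the fit of 6 libraries 14 of the 23 were lower in P240L than in oma-1::gfp inputs. Between fzy-1;P240L and P240L inputs 3 were lower and 4 higher. Without the second fzy-1;P240L input 2 of the 23 were called lower, and without any other library 8 to 12. The gene cnc-2 had 0.219 and 0.524 RPKM in fzy-1;P240L inputs, 0.251 and 0 RPKM in P240L inputs and 17.8 and 36.01 RPKM in oma-1::gfp inputs (-4.28, SE 0.34, limma adjusted p = 0.00148). Near it on chromosome V, cnc-4 had 5.96 and 3.68 RPKM in fzy-1;P240L inputs, against 29.7 and 49.6 RPKM in oma-1::gfp inputs (-2.79, SE 0.31, limma adjusted p = 0.00416), and did not pass without the second fzy-1;P240L input. The peptide genes nlp-29 and nlp-31, classical readouts of epidermal wounding and fungal infection, had 18.8 and 14.3 RPKM and 26.8 and 20.4 RPKM in fzy-1;P240L inputs, against 40.7 and 64.3 RPKM and 65.6 and 99.2 RPKM. In cnc-2, cnc-4, nlp-29 and nlp-31 the second oma-1::gfp library was well above the first, and the ranges of the strains did not overlap.

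Other lower genes had a level in P240L inputs near that of fzy-1;P240L inputs or apart from it. drd-10, on chromosome V, had 1.73 and 0.690 RPKM in fzy-1;P240L inputs, 1.82 and 0.929 RPKM in P240L inputs and 38.7 and 26.6 RPKM in oma-1::gfp inputs (-3.95, SE 0.30, limma adjusted p = 0.00138). In contrast, F18E3.11 was low in fzy-1;P240L inputs alone, with 0.971 and 0.464 RPKM, against 29.3 and 41.1 RPKM in P240L inputs and 16.7 and 16.03 RPKM in oma-1::gfp inputs (-3.35, SE 0.22, limma adjusted p = 0.00115). Its neighbours F18E3.12 and F18E3.13 had 1.94 and 0.929 RPKM and 3.89 and 1.86 RPKM in fzy-1;P240L inputs, against 12.9 and 17.6 RPKM and 12.8 and 13.96 RPKM in oma-1::gfp inputs. Without the second fzy-1;P240L input F18E3.13 did not pass. These 3 gene models lie between chrV:7413482 and chrV:7416433 and, as a run of like genes, may share reads. The insulin-like gene ins-13 was listed at 0 in both fzy-1;P240L inputs and had 2.83 and 3.79 RPKM in P240L inputs and 6.54 and 4.90 RPKM in oma-1::gfp inputs.

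Of the remaining genes named by the size of the decrease, ZK228.4 had 2.92 and 2.79 RPKM in fzy-1;P240L inputs, against 16.2 and 17.8 RPKM in oma-1::gfp inputs, and the lysozyme gene ilys-5 had 4.22 and 4.40 RPKM, against 19.9 and 18.99 RPKM. The small heat shock genes hsp-16.48 and hsp-16.49, a near-identical pair, were called lower in fzy-1;P240L inputs, at 19.8 and 25.0 RPKM and 24.5 and 27.4 RPKM, against 57.4 and 94.3 RPKM and 60.6 and 83.3 RPKM in oma-1::gfp inputs, and stood at 170 to 191 RPKM in P240L inputs. Among 42 tested heat shock and stress genes 3 were higher and 2, this pair, were lower; without either fzy-1;P240L input 0 were lower, and without 1 library 1 or 2 were higher. These counts stand beside 4.83% higher and 0.559% lower over all tested genes. The gene sip-1, a small heat shock protein gene of the germ line, had 2551 and 1984 RPKM in fzy-1;P240L inputs and 2075 and 1638 RPKM in oma-1::gfp inputs and did not pass (limma adjusted p = 0.674).

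The largest families of housekeeping genes gave no call. The 77 tested cytosolic ribosomal protein genes had a median of -0.34, -0.54 with equal medians and -0.12 with quantile normalization, and limma called 0, where 2 had an unadjusted p under 0.05 in each direction. Their sums were 38554 and 30048 RPKM in fzy-1;P240L inputs, 33609 and 28006 RPKM in P240L inputs and 45700 and 38830 RPKM in oma-1::gfp inputs, so that both fzy-1;P240L sums were below both oma-1::gfp sums, at a ratio of means of 0.812. By value, 35 of the 78 genes were lower in both fzy-1;P240L inputs and 6 were higher in both, against 9.87% lower and 36.8% higher over all genes. The proteasome subunits (31 tested) and the oxidative phosphorylation genes (48 tested) had medians of 0.01 and 0.16 (-0.19 and -0.04 with equal medians) and no call, and the muscle sarcomere genes (31 tested) had a median of 0.06, or -0.13 with equal medians. Histone genes gave 2 higher calls among 65 tested, beside 4.83% of all genes. These were his-32 and his-70, the second at 3.49 and 2.55 RPKM in fzy-1;P240L inputs and at 0 in both oma-1::gfp inputs. Cuticle collagens gave 6 higher and 1 lower of 89 tested, beside 4.83% and 0.559% of all genes, all 7 of them under 20 RPKM. Without any 1 library 2 or 3 collagens were higher, and the lower call was lost without the second fzy-1;P240L input or either oma-1::gfp input.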

How the data were processed

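The members compared and the gene lists were chosen with earlier results of these data known. Per the labels, the authors sequenced VAHTS libraries of TRIzol RNA, and CASAVA 1.4, HISAT2 2.0.5 and HTSeq 0.6.0 are credited to the submitters' processing notes; the genome build used is not given in the sources used here. The deposited per-library files hold RPKM values multiplied by 1000, which were divided by 1000; genes at 0 are left out of them and were set to 0. This scale was read from the values: RPKM times exonic length sums to between 36.4% and 41.6% of the total that full mapping would give in the inputs. Steps of the low values gave whole reads (within 0.05) for 38.1% to 43.5% of them in the inputs, so reads were not recovered and the implied depths are rough. Limits of detection cover counting error only.

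Of 18887 genes listed in the 12 adult libraries, 18553 were matched by identifier to the Ensembl WBcel235 annotation, which gave coordinates. The authors' germ line class and gene names were read from a joint table; its fold change and p-value columns, and 40 columns of values per sample in the joint tables whose names match no label, were not used. limma 3.58.1 (R 4.3.3, trend) was fitted to log2(RPKM + 1) of the 4 libraries with genes at 1 RPKM or more in 2 libraries, and p-values were adjusted over all of them. P240L inputs entered a second fit of 6 libraries. Tested on simulated data with 200 changed genes (10128 to 10157 genes tested in this comparison), the fit recovered 98.5%, 100% and 100% of log2 folds of 1.5, 2 and 3 with 0 false calls. The changed genes were drawn only from those with a mean log2(RPKM + 1) above 3. The simulated noise was independent between libraries, with an SD of 0.236 log2 units for every gene. Recovery of rarer genes, and false calls from deviations shared between libraries, were therefore not tested.

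Named genes were oma-1, oma-2 and fzy-1; of each sperm role the 2 most abundant and the called gene of largest difference; per direction the 8 largest calls outside the sperm list whose strains do not overlap and which have 10 RPKM or more in each library of the higher strain; and of each other list up to 2 calls and the most abundant gene. Genes outside this rule are said to be chosen after their values were seen, or illustrate a count. In all, 17 other settings were tried: pseudocounts, filters, scalings, moderation, wider fits, the replicate number as a block and leaving out each library.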

Additional observations from a re-analysis of the deposited data

How the results depend on the processing

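In place of 509 genes higher and 59 lower, there were 189 and 27 with a pseudocount of 5 RPKM, 209 and 34 with a minimum of 5 RPKM, 300 and 101 with quantile normalization and 188 and 11 when tested against a log2 difference of 1; without a filter 24 were lower. Of those outside the sperm list, 447 and 59, the same settings gave 133 and 27, 154 and 34, 240 and 101, and 132 and 11, and 24 lower without a filter. Taking the Spermatogenic class in place of the list gave 238 higher in place of 62, and 262 higher outside both. Leaving out 1 library at a time gave 389 to 472 higher and 15 to 53 lower in all, and 328 to 412 higher and 15 to 53 lower outside the sperm list; the 15 came without the second fzy-1;P240L input, and 14 of them were among the 59. The sperm list kept between 55 and 62 of its calls under all 17 settings and had 0 lower in each. With the replicate number as a block there were 697 higher and 85 lower; differences between replicates of the same number correlated at 0.505 across genes between the strains, but 2 pairs and a shared number alone do not establish a pairing. No named call changed its sign; treating 1 as the null lost 10 of 45 and a pseudocount of 5 lost 7. Of 884 counts over the other lists, 775 stayed within 1.5 times. Depth limits statements on genes under about 0.3 RPKM, and with 2 libraries per strain no sample could be judged an outlier.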

Other observations

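Some genes not described above differed between the strains, and all were chosen after their values were seen. The neuropeptide gene nlp-39 had 18.9 and 14.7 RPKM in fzy-1;P240L inputs, 0.595 and 1.301 RPKM in P240L inputs and 1.54 and 2.15 RPKM in oma-1::gfp inputs, and was higher by 2.64 (limma adjusted p = 0.00167). The cysteine-rich secretory protein gene scl-2 had 94.9 and 74.97 RPKM in fzy-1;P240L inputs, 13.4 and 19.1 RPKM in P240L inputs and 25.14 and 19.2 RPKM in oma-1::gfp inputs (1.89, limma adjusted p = 0.00458). The saposin-like gene spp-23 was lower, at 10.8 and 11.2 RPKM in fzy-1;P240L inputs, against 31.8 and 30.8 RPKM in oma-1::gfp inputs, and stood at 128 and 132 RPKM in P240L inputs.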
